A study of Mus musculus with 4 samples.

Results

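Although the tumor cells in this experiment were sorted on the leukocyte antigen CD45, 288 of 28290 sequenced cells carried keratin or fibrillar collagen transcripts with almost none of the CD45 transcript Ptprc. These cells were chosen by their unique molecular identifiers (UMIs, counts of single captured molecules): at least 500 detected genes, at most 10% mitochondrial UMIs, at most 2 Ptprc UMIs, under 0.2% of UMIs on the macrophage genes C1qa, C1qb, C1qc and Csf1r, and at least 5 UMIs over Krt8, Krt18, Col1a1, Col1a2 and Col3a1. The limits on genes and mitochondria kept 28194 cells in all, so that 27906 other cells remained for comparison. Of the 288 cells, 29 held more keratin than collagen UMIs and are called keratin-led, and 259 held more collagen than keratin UMIs and are called collagen-led. No cell held as many of one as of the other. The levels of these genes chose the cells and are given below as a description only.

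All 4 groups were B-hCTLA-4 mice, which carry a humanized CTLA-4 gene, of C57BL/6 host strain, with subcutaneous tumors grown from injected cells of MC38, a transplantable mouse colon carcinoma line. Per the sample records, intraperitoneal treatment began at about 100 mm3, and tumors were taken on day 8, after 3 treatments, with the tumors of 11 mice pooled into 1 library per group. The groups received human IgG1 as isotype control at 10 mg/kg, the anti-human CTLA-4 antibody ipilimumab at 10 mg/kg, the anti-mouse FcγRII antibody AT130-2 mIgG1-N297A at 20 mg/kg, or the combination of both antibodies. The article describes other doses, tumor sizes, times and numbers of tumors for this experiment. The title of each library given a single antibody names one antibody while its treatment field names the other, so these libraries are called single antibody A (titled for anti-human CTLA-4) and single antibody B (titled for anti-mouse FcγRII). With a single pooled library per group, treatment and library cannot be told apart, and groups were compared without a test. Intervals are exact at the 95% level and cover counting error only.

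Keratins 8 and 18 pair into the intermediate filaments of simple epithelia, and Epcam, Cdh1 and the claudins build epithelial contacts. Type I and type III collagens, encoded by Col1a1, Col1a2 and Col3a1, are secreted fibrils of connective tissue made mainly by fibroblasts and by cells of mesenchymal character. Cultured carcinoma cells can lose epithelial genes and take up mesenchymal ones, so neither set alone separates tumor cells from stroma. A sort on CD45 is meant to leave both behind.

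The keratin and collagen classes hardly overlapped. Keratin-led cells held 7 to 1190 keratin UMIs each with a median of 162, and 1 collagen UMI in all 29 cells together. Collagen-led cells held 5 to 2989 collagen UMIs each with a median of 300, and 9 keratin UMIs in all, spread over 8 cells. By UMI counts the collagens were almost wholly Col3a1, which was found in all 259 collagen-led cells, whereas Col1a1 was found in 70 and Col1a2 in 20.

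**Figure D1:**
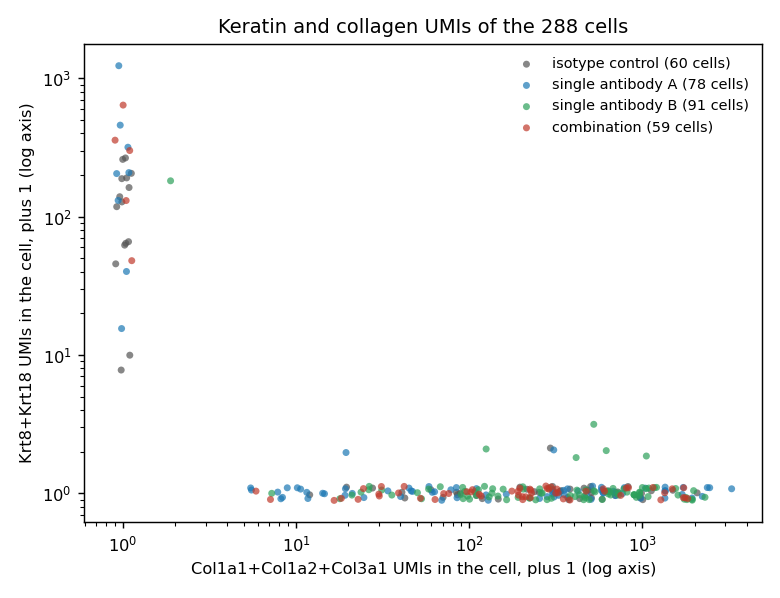
UMIs of Krt8 and Krt18 against UMIs of Col1a1, Col1a2 and Col3a1 in each of the 288 cells, both plus 1 on log axes, with a small random shift so that points do not hide each other. Colours give the library, and the 29 keratin-led cells form the column at the left and the 259 collagen-led cells the row at the bottom.

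Few cells lay near the limit on keratin and collagen UMIs, and more near that on Ptprc. Among cells that met the immune limits, 48 had 1 to 4 UMIs of the 5 genes, 13 members had 5 to 9 and 275 had 10 or more. Ptprc was at 0 UMIs in 221 members, at 1 in 45 and at 2 in 22, and in the combination at 0 in 36, at 1 in 13 and at 2 in 10, while 14 cells with 3 to 5 Ptprc UMIs and 21 with more fell outside that limit alone. In total 104 cells with at least 5 keratin or collagen UMIs were left out by an immune limit, 67 of them by both limits.

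The collagen-led cells were deeply sampled, with a median of 81641 UMIs and 8619 genes per cell, against 16696 UMIs and 4729 genes in the other cells. Keratin-led cells had a median of 19551 UMIs and 5457 genes. No full cell barcode occurred in more than 1 library, although 110 of the 288 members shared the 16-base droplet part of their barcode with a cell of another library, as did 9385 of all 28290 cells.

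The libraries held different shares of the 2 classes. Collagen-led cells made up 0.552% of the cells kept in isotype control (95% interval, 0.403 to 0.738; 45 of 8148), 1.10% in single antibody A (0.858 to 1.39; 70 of 6364), 1.48% in single antibody B (1.19 to 1.82; 90 of 6083) and 0.711% in the combination (0.534 to 0.926; 54 of 7599). The intervals of the isotype control and the combination overlapped, and that of single antibody B lay above both. The interval of single antibody A lay above that of isotype control and overlapped that of the combination. Keratin-led cells made up 0.184% in isotype control (0.103 to 0.304; 15 cells), 0.126% in single antibody A (0.0543 to 0.248; 8 cells), 0.0164% in single antibody B (0.000416 to 0.0916; 1 cell) and 0.0658% in the combination (0.0214 to 0.154; 5 cells). Here the interval of single antibody B lay below that of isotype control and overlapped the other two. Since the sort was meant to exclude these cells, the shares describe what passed the sort and not the makeup of the tumors. Requiring 0 Ptprc UMIs lowered the collagen-led share to 0.408% in the combination and to 1.15% in single antibody B, which put the combination below isotype control.

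**Figure D2:**
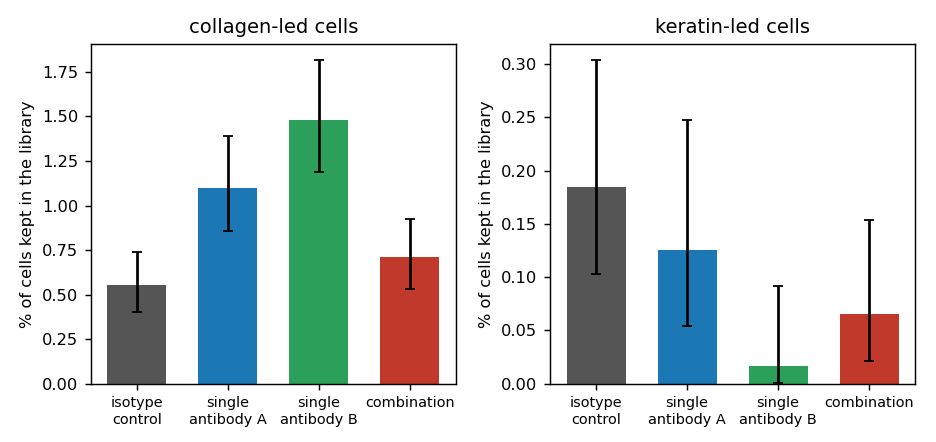
Collagen-led cells (left) and keratin-led cells (right) as a percentage of the cells kept in each of the 4 libraries, with exact binomial 95% intervals that cover counting error only. The bars run from 0.552% to 1.48% for collagen-led cells and from 0.0164% to 0.184% for keratin-led cells.

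Levels of genes are given as the UMI sum of a class in a library per 1000000 UMIs (CPM). Each gene was read through its own probes, so levels were compared between cells and not between genes. Keratin-led cells expressed a wide epithelial set, of which 10 of 14 listed epithelial genes reached 50 CPM. Krt8 (chromosome 15, 101996698 to 102004482 in GRCm38) stood at 5128, 9920, 12950 and 10610 CPM in isotype control, single antibodies A and B and the combination. Krt19, another keratin of simple epithelia, stood at 7864, 12367, 17131 and 12705 CPM in the keratin-led cells of the 4 libraries. Epcam, an epithelial adhesion molecule, was found in all 29 cells at 1455, 1197, 1224 and 1072 CPM and at 1.13 CPM in the other cells. Cdh1, encoding E-cadherin, was also found in all 29 cells, at 565 CPM over the 4 libraries. The cells of all 4 libraries thus carried these genes, although single antibody B was represented by 1 cell of 9807 UMIs.

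Most of the intestinal genes listed were at 0. The intestinal genes Cdx2, Vil1, Krt20, Lgr5 and Ascl2 were listed at 0, as were Krt5, Krt14 and Trp63 of stratified and basal epithelium. Lgals4, which encodes a galectin of the gut epithelium, was found in 6 of the 29 cells, at 12.4, 21.4, 0 and 38.6 CPM in the 4 libraries. Clca1 and Fcgbp, known from mucus-producing epithelium, were found in 6 cells each. Prlr, Pgr and Esr1, which encode the receptors for prolactin, progesterone and estrogen, were found in 25, 23 and 27 of the 29 cells. Prlr stood at 3748, 3932, 5608 and 3331 CPM in the 4 libraries and at 0 UMIs in all 259 collagen-led cells. Pgr stood at 1074, 897, 3059 and 821 CPM, and at 0.172 CPM in the other cells. The growth factor genes Areg, at 3926 CPM over all keratin-led cells, and Ptn, at 5116 CPM, were also at or under 0.689 CPM in collagen-led cells. Whether these 29 cells descend from the injected cells was not tested.

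The keratin-led cells fell into 2 kinds, which were set apart by Prlr after the cells had been seen. In 23 cells Prlr had 10 to 176 UMIs, and in 6 cells it had 0 to 3. The 23 Prlr cells held medians of 18 Pgr, 75 Areg and 20 Fgfr2 UMIs, where Fgfr2 is a fibroblast growth factor receptor, and of 0 Wfdc18, Csn3 and Lcn2 UMIs. The 6 other cells held medians of 28.5 UMIs of Wfdc18, a gene of the whey acidic protein family, 40.5 of Lcn2, encoding the iron-scavenging lipocalin 2, and 8.50 of the receptor kinase gene Kit, with 0 of Pgr, Areg and Fgfr2. Csn3, the gene of kappa-casein, was found in 4 of the 6 and in 1 of the 23. Only 1 cell of all 29 had at least 10 UMIs of both Prlr and Wfdc18, and 1 had at least 10 of neither. The 6 cells were shallower, with a median of 7433 against 21828 UMIs, and they came from isotype control and single antibody A, where 11 of 15 and 6 of 8 keratin-led cells were Prlr cells.

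The highest genes of keratin-led over collagen-led cells in each library, by the smallest ratio over the 4 libraries, were Krt19, Gpx3, Krt8, Areg, Prlr, Ly6d, Ptn, Krt18, Wfdc2 and Epcam. In all, 298 of the 2501 genes with at least 50 CPM in the keratin-led cells of every library stood at least 4-fold higher there than in collagen-led cells of each library (11.9%). Gpx3, encoding a secreted glutathione peroxidase, stood at 11069, 3953, 8565 and 3727 CPM and had 1 UMI in the collagen-led cells. Ido1, the tryptophan-degrading enzyme induced by interferon gamma in many cells, stood at 1376, 2180, 2039 and 840 CPM in keratin-led cells and at no more than 4.14 CPM in collagen-led cells of any library. The cells that chose the classes are the cells compared here, so these differences are a description of the classes.

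Collagen-led cells carried genes of mesenchymal cells, some of which the other cells carried too. Col3a1 (chromosome 1, 45311538 to 45349706) stood at 6467, 5904, 6342 and 4271 CPM in the 4 libraries and at 42.1 CPM in the other cells. The fibronectin gene Fn1 stood at 7131, 5219, 5256 and 4331 CPM, and the intermediate filament gene Vim at 4980, 5298, 4783 and 5498 CPM. In the other cells Fn1 stood at 3613, 2525, 4491 and 2370 CPM and Vim at 3996, 3996, 4211 and 4984 CPM. Of the collagen VI genes, Col6a1 stood at 3158, 2370, 2714 and 2003 CPM and Col6a2 at 3203, 2334, 2782 and 1980 CPM. Serpinh1, the collagen chaperone, stood at 2269, 2175, 2149 and 2233 CPM, so that matrix and matrix-folding genes were present in every library.

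Of the 5006 genes with at least 50 CPM in collagen-led cells of every library, 9 stood at least 4-fold above keratin-led cells in each (0.180%): Col3a1, Fn1, Vim, Col6a2, Col6a1, Serpinh1, S100a4, Ctsl and Cd34. This count was held down by the single keratin-led cell of single antibody B, which has 9807 UMIs in all, since the smaller side of each ratio was set to at least 3 UMIs. Without that library the count was 326 of 5064 genes. The EMT list, of factors and markers of epithelial to mesenchymal transition, had 9 of 11 genes at or above 50 CPM in collagen-led cells and none in keratin-led cells, and summed to 13211 CPM in collagen-led and 9663 CPM in the other cells. Among them, the transcription factor genes Snai1, Twist1 and Twist2 stood at 235, 105 and 63.6 CPM over all collagen-led cells, while Epcam, Cldn3 and Cldn4 were at 0 UMIs.

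Collagen-led cells carried most of the listed fibroblast genes. Fibroblast-associated Dcn, encoding decorin, Sparc and Pdgfra stood at 1072, 1037 and 235 CPM over all collagen-led cells. Of the 18 listed fibroblast genes, 11 reached 50 CPM in collagen-led cells, Col6a1 and Col6a2 among them. Others of the list were near 0: Fap at 1.65 CPM, Postn at 1.56 CPM and Thy1 at 0.597 CPM, with Tcf21 at 0. Acta2, of the pericyte and smooth muscle list, stood at 1.75 CPM. Cd34, a surface sialomucin of progenitor, endothelial and some mesenchymal cells, was found in 258 of 259 cells at 1274, 1346, 1237 and 1236 CPM. Rhox5, an X-linked homeobox gene of the reproductive tract that is also known from tumor cell lines, was found in 253 of 259 cells, or 97.7%, at 606, 542, 569 and 600 CPM. In the other cells 3.27% had a Rhox5 UMI, at a median depth of 16696 UMIs, and in keratin-led cells none of 29 did. With each cell drawn down to 14037 UMIs, 98.9% of the 243 collagen-led cells of that depth would still show a Rhox5 UMI.

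Collagen-led cells were also rich in cell cycle transcripts. All 18 listed cell cycle genes in the table reached 50 CPM in them, against 3 of 18 in keratin-led cells and 14 of 18 in the other cells. The summed level of the list was 4451, 4332, 5523 and 5296 CPM in the collagen-led cells of the 4 libraries, between 1415 and 1844 CPM in the other cells, and 460, 155, 102 and 1178 CPM in keratin-led cells. Top2a, the topoisomerase of dividing cells, stood at 510, 538, 720 and 711 CPM and was found in 232 of 259 cells. Rhox5 and cell cycle genes were thus found in the collagen-led cells of every library, and which of these cells descend from the injected line and which are host stroma was not tested.

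Lists of basement membrane and collagen processing genes were higher in collagen-led cells than in keratin-led or other cells. Basement membrane genes summed to 2596, 2395, 2380 and 2145 CPM in the collagen-led cells of the 4 libraries, with the type IV collagen gene Col4a1 at 1040, 902, 904 and 771 CPM, and to 736 CPM over all keratin-led cells and 63.0 CPM in the other cells. Genes of collagen folding and cross-linking summed to 4857 CPM over all collagen-led cells, 825 CPM in keratin-led cells and 985 CPM in the other cells, and Plod2, a lysyl hydroxylase of collagen, was found in 253 collagen-led cells and in none of the keratin-led cells. Of the contractile fibroblast list, the tropomyosin gene Tpm1 gave 1373 of 1781 CPM. Inflammatory fibroblast genes summed to 760, 1286, 783 and 1122 CPM, with Il6 at 0. This list stood higher in the other cells, at 1116, 1455, 1124 and 1983 CPM.

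Growth factor receptor genes summed to 2281 CPM in keratin-led, 1704 CPM in collagen-led and 606 CPM in the other cells, and integrin and laminin receptor genes to 1569, 1774 and 2156 CPM. Single receptors differed between the classes. Fgfr2, whose epithelial form binds fibroblast growth factors made by mesenchyme, stood at 1045, 1320, 1224 and 1130 CPM in keratin-led cells and at 6.38 CPM over all collagen-led cells. The receptor kinase gene Axl stood at 474, 560, 542 and 717 CPM in collagen-led cells, at 499 CPM in the other cells and at 0 in keratin-led cells. Inhba, which encodes a subunit of activin, was likewise at 0 in keratin-led cells and at 448, 398, 338 and 478 CPM in collagen-led cells. Sox9, a transcription factor gene of several epithelial and cartilage lineages, was found in 255 of 259 collagen-led and 25 of 29 keratin-led cells, at 501 and 508 CPM, and at 5.39 CPM in the other cells. It was thus a gene that both classes carried.

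Lists of other non-immune cell types summed to at most 75.2 CPM in collagen-led cells and at most 329 CPM in keratin-led cells over the 4 libraries together, and several stood above the level of the other cells. The endothelial list summed to 28.6 CPM in collagen-led cells and the pericyte and smooth muscle list to 75.2 CPM, while Myh11, Notch3, Kcnj8 and Abcc9 were at 0. The mesothelial, skeletal muscle, keratinocyte, and Schwann and melanocyte lists summed to 0.872, 5.88, 16.9 and 4.499 CPM in collagen-led cells. The adipocyte list summed to 60.4 CPM, of which Fabp4 gave 60.3 CPM while Adipoq, Plin1 and Lep were at 0. In keratin-led cells the same lists summed to 244 CPM (endothelial, with Eng highest), 262 CPM (pericyte and smooth muscle, with Notch3 at 251 CPM), 1.85 CPM (mesothelial), 3.69 CPM (skeletal muscle), 329 CPM (keratinocyte, with the desmosome gene Dsp at 318 CPM), 44.3 CPM (Schwann and melanocyte) and 0 CPM (adipocyte). In the other cells the endothelial, pericyte and smooth muscle, keratinocyte, and Schwann and melanocyte lists summed to 194, 22.0, 2.06 and 1.19 CPM, each below the keratin-led cells. In the 5 keratin-led cells of the combination the endothelial list stood at 599 CPM, with Flt1 at 309 and Eng at 270 CPM. Cdh5, Kdr, Tek, Tie1, Esam, Plvap and Emcn of that list were at 0 in all keratin-led cells. The part of these lists in the results on keratin-led cells was not tested. The fibroblast list summed to 8101 CPM in collagen-led cells, whereas 13 of its 18 genes were at 0 in keratin-led cells, and the epithelial list summed to 3.26 and 16156 CPM in the 2 classes.

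Transcripts of macrophages and lymphocytes were low beside those of the other cells. The macrophage list, 4 of whose genes the selection had limited, summed to 183, 111, 108 and 241 CPM in the collagen-led cells of isotype control, single antibodies A and B and the combination, and to between 23580 and 27348 CPM in the other cells. Its most abundant gene, the lysozyme gene Lyz2, stood at 52.3, 39.9, 47.5 and 92.4 CPM in collagen-led cells. In relation to the other cells of the same library, the macrophage list stood at 0.777%, 0.470%, 0.394% and 0.974%, highest in the combination. The T cell list summed to 2.89 CPM in collagen-led cells and 689 CPM in the other cells. In collagen-led cells the NK cell list to 13.9 CPM, of which Eomes gave 12.2 CPM, the B cell list to 1.61 CPM, the dendritic cell list to 19.8 CPM, with Zbtb46 at 17.6 CPM, and the mast cell and basophil list to 0.689 CPM. The neutrophil list summed to 437 CPM, of which the gelatinase gene Mmp9 gave 434 CPM, with Ly6g and Retnlg at 0. In keratin-led cells the macrophage list summed to 192 CPM, the T cell list to 5.54 CPM and the neutrophil and dendritic cell lists to 0, and the pan-leukocyte list to 244 CPM, of which the actin-bundling gene Lcp1 gave 205 CPM. The NK and B cell lists summed to 3.69 and 1.85 CPM in keratin-led cells, and the mast cell and basophil list to 0. The red cell and platelet list summed to 12.9 CPM in keratin-led and 0.918 CPM in collagen-led cells, and the 4 Y chromosome genes had 0 UMIs in every cell of every library.

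**Figure D3:**
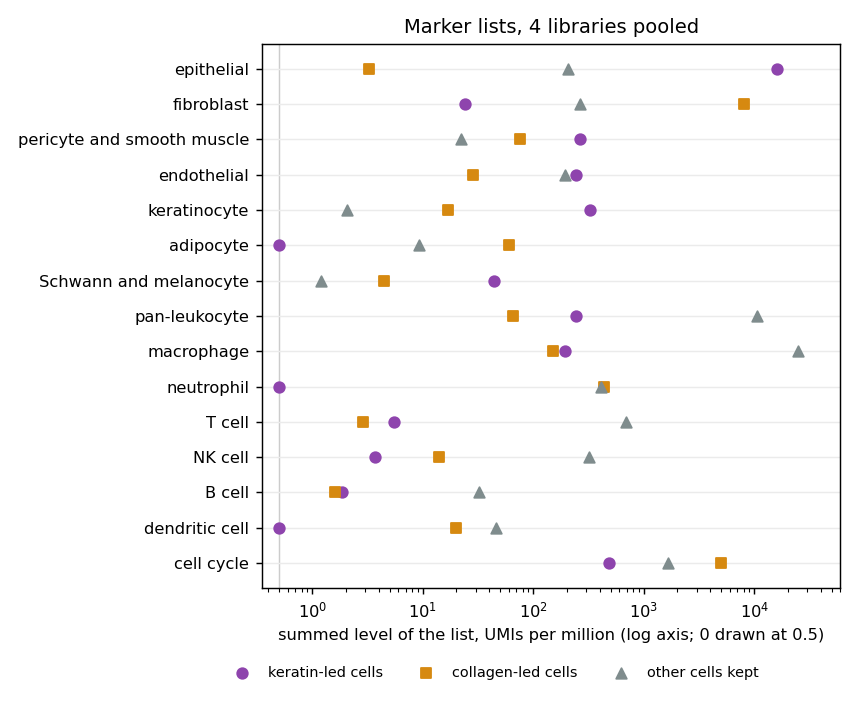
Summed level of 14 marker lists and the cell cycle list in keratin-led, collagen-led and other cells, in UMIs per 1000000 over the 4 libraries on a log axis, with sums of 0 drawn at 0.5. Keratin-led cells stand at 16156 on the epithelial list, collagen-led cells at 8101 on the fibroblast list, and the other cells at 24768 on the macrophage list.

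Against the other cells, 568 of 4993 genes with at least 50 CPM in the members of every library stood at least 4-fold higher in the members of each library (11.4%). The highest by the smallest ratio were Igf2, Col6a1, Col6a2, Gria4, Rgma, Col5a3, Pcdh19, Sertad4, Gas1 and Tcim. Igf2, a growth factor of fetal tissues, stood at 143, 174, 422 and 263 CPM in members and at no more than 0.487 CPM in other cells of any library. Col5a3 stood at 245, 232, 214 and 251 CPM in members and Rgma, a co-receptor for bone morphogenetic proteins, at 259, 241, 274 and 229 CPM. Since 259 of the 288 members are collagen-led and those cells are deeper, this list describes them above all.

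Igf2 was carried by few cells, whereas Rhox5 and Cd34 were carried by nearly all. Of the 259 collagen-led cells, 51 had an Igf2 UMI, and the 10 highest cells held 81.8% of its UMIs. Other genes found in fewer cells than an even spread of their UMIs would give were Mme, encoding neprilysin, in 35 cells, the proteoglycan gene Lum in 44, Col1a1 in 70, Aqp1 in 71, Enpp2 in 74, Fabp4 in 76, the matrix genes Cilp in 80 and Dpt in 84, and the nitric oxide synthase gene Nos2 in 102. These 10 genes were chosen for their uneven spread after it had been seen. Cmklr1, found in 85 cells, ranked before Nos2 and was not used, and the counts that follow hold for this choice of 10. In 56 cells at least 3 of the 10 reached 10 UMIs, and in 141 cells none did. The most frequent pairs were Dpt and Cilp, at 58 and 36 cells with 26 in common, and Dpt and Col1a1, at 58 and 37 cells, also with 26 in common. Multiplying the shares of cells would give 8.06 and 8.29 cells for these pairs. Some pairs fell below that product, such as Mme and Aqp1 at 0 against 1.76 cells and Fabp4 and Nos2 at 2 against 3.185 cells. The 10 genes thus did not all go together.

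The 56 cells came from all libraries, with 7 in isotype control, 14 in single antibody A, 24 in single antibody B and 11 in the combination. Their Col3a1 level was 13280 CPM against 3623 CPM in the other 203 collagen-led cells, and their Dcn level 2204 against 751 CPM. Pdgfra stood at 517 against 155 CPM, and Col1a1, one of the genes that chose them, at 677 against 20.9 CPM. Rhox5 had at least 10 UMIs in 56 of the 56 cells and in 178 of the 203, at 548 and 582 CPM, and Top2a stood at 710 and 620 CPM. Cells with and without these genes thus both carried Rhox5 and Top2a, and their median depths were 80510 and 82684 UMIs.

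Interferon gamma from T cells and natural killer cells raises the factor IRF1 and the genes that cut, transport and display peptides on MHC class I. Type I interferons act on genes that carry DNA elements known as ISREs. In collagen-led cells, genes of both kinds stood higher in the combination library than in the isotype control. Over all genes, 39 of 5714 with at least 50 CPM in either library stood at least 2-fold higher in the combination (0.683%) and 31 at least 2-fold lower (0.543%), and 50.9% were higher by any ratio. Of the 18 tested genes of the MHC class I and interferon gamma list, 18 were higher and 7 at least 2-fold, with a median ratio of 1.43 against 1.00 over all genes. Of 8 tested type I interferon-stimulated genes, 7 were higher and 5 at least 2-fold, with a median ratio of 2.34. Of the 5, Usp18, Ifi44 and Irf7 were at 22.1, 21.1 and 23.4 CPM in isotype control. They reached 50 CPM only in the combination, and so were tested through the library where they are high. The genes at 50 CPM in isotype control had ratios of 2.60 (Ifit3), 2.34 (Isg15), 1.73 (Bst2), 1.215 (Rsad2) and 0.571 (Ifit1). Some lists of immune cell genes were also highest in the collagen-led cells of the combination. The MHC class II list summed to 71.5, 102, 40.9 and 259 CPM in the 4 libraries and the macrophage list to 183, 111, 108 and 241 CPM. Others were highest in isotype control, with the pan-leukocyte list at 103.7, 54.2, 41.0 and 93.7 CPM and the NK cell list at 16.9, 13.6, 13.2 and 13.5 CPM. In the other cells the MHC class II list summed to 22439, 25269, 13042 and 26951 CPM. The part of these transcripts in the interferon genes was not tested.

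B2m, the light chain of MHC class I (chromosome 2), stood at 915 CPM in the collagen-led cells of isotype control, 1682 in single antibody A, 1537 in single antibody B and 2432 in the combination. The ratio of combination to isotype control was 2.66 (2.55 to 2.77). The median over single cells had the same order, at 837, 1718, 1466 and 2407 CPM, and the interquartile range over cells of the combination (1863 to 2931 CPM) lay above that of isotype control (500 to 1131 CPM). In the other cells B2m stood at 1061, 2281, 2063 and 3269 CPM, so that the collagen-led cells held between 73.7% and 86.2% of the level of the other cells. For the macrophage list they held 0.777%, 0.470%, 0.394% and 0.974%, highest in the combination. The part of immune cell transcripts in the B2m values was not tested.

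Cxcl10, a chemokine gene that draws T cells, stood at 120, 286, 102 and 540 CPM, with a ratio of 4.52 (4.05 to 5.05), and 3 cells held 59.5% of its UMIs in the combination. The immunoproteasome and transporter genes differed less: Psmb9 stood at 215, 182, 153 and 272 CPM, with a ratio of 1.26 (1.15 to 1.39), and Tap1 at 171, 167, 139 and 241 CPM, with a ratio of 1.41 (1.27 to 1.57). H2-K1 and H2-D1, the class I heavy chains, had ratios of 1.16 (1.10 to 1.22) and 1.16 (1.05 to 1.28), both under 2-fold. In each of these genes the combination stood highest of the 4 libraries.

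The combination library was also set against each single antibody library. In both comparisons, which share the combination library, the 18 genes of the MHC class I and interferon gamma list were all higher in the combination. Their median ratio was 1.39 to single antibody A and 1.75 to single antibody B, where 51.2% and 48.5% of all tested genes were higher. Single antibody A stood above isotype control in 10 of 17 genes of the list, with a median ratio of 1.05 (51.2% of all genes), and single antibody B in 2 of 17, with a median ratio of 0.856 (52.0% of all genes). The comparisons with isotype control likewise share that library. In the other cells, combination against isotype control gave 19 of 19 genes higher, where 33.1% of all genes were higher, and 7 at least 2-fold, where 1.91% of all genes were. Their median ratio was 1.51 on this list and 1.29 on the type I list, where 7 of 8 genes were higher and none 2-fold.

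**Figure D4:**
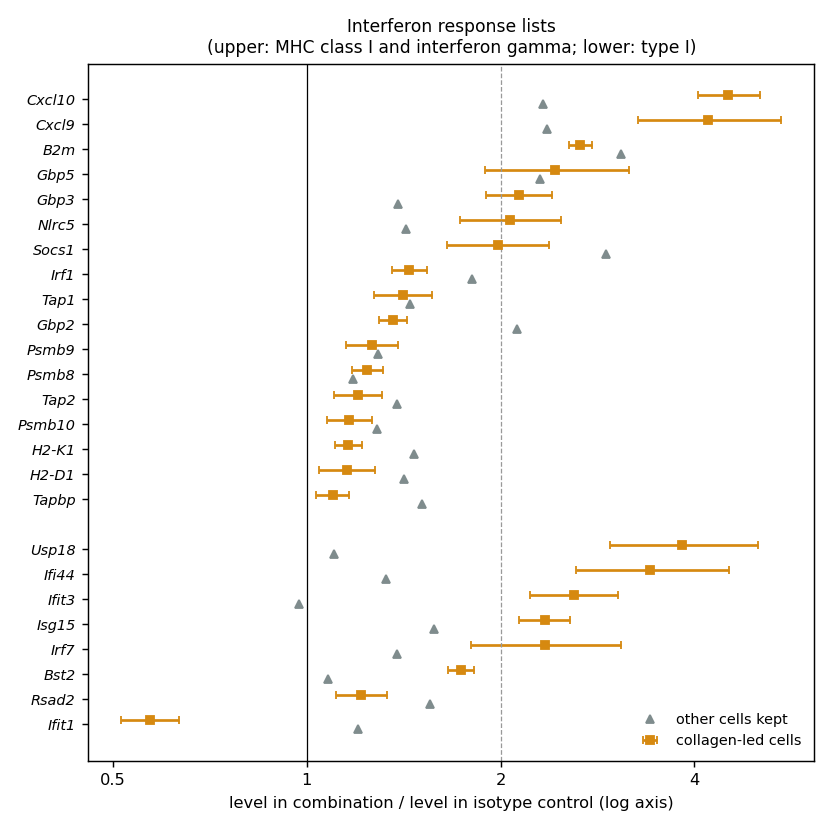
Ratio of the level in the combination to that in isotype control, on a log axis, for tested genes of the MHC class I and interferon gamma list (upper) and of the type I interferon-stimulated list (lower). Squares are collagen-led cells with exact 95% counting intervals and triangles are the other cells kept. The genes shown of the upper list lie above 1 in collagen-led cells, with B2m at 2.66.

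The cells carried some genes of the 2 lists unevenly. Without the 5 cells of each library with the largest share of UMIs on the MHC class I and interferon gamma list, 5 of 17 tested genes were at least 2-fold higher and 17 of 17 were higher. Without the 5 such cells for the type I list, 4 genes still reached 50 CPM, 2 of them were higher and 1 at least 2-fold, with a median ratio of 1.287. The cells left out were picked by the lists themselves, so lower levels without them were built in. This step therefore cannot show on how many cells either list rested. Usp18, an interferon-induced protease that restrains type I signaling, stood at 22.1, 37.3, 21.5 and 84.5 CPM, and 1 cell of the combination held 61.8% of its UMIs there. Ifit3 stood at 64.3, 81.1, 65.4 and 167 CPM, and Ifi44 at 21.1, 32.1, 20.3 and 72.2 CPM. In the combination 3 cells held 57.5% of the Ifit3 and 56.4% of the Ifi44 UMIs, and in isotype control 60.6% and 73.9%. Ifit1, of the same family of RNA-binding proteins, went the other way, at 243, 106, 87.8 and 139 CPM.

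**Figure D5:**
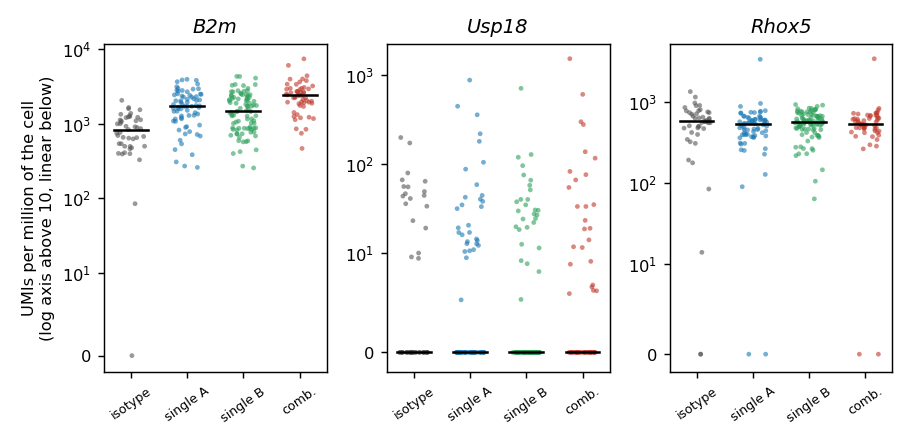
Level of B2m, Usp18 and Rhox5 in each of the 259 collagen-led cells by library, in UMIs per 1000000 of the cell, with the median as a bar and a random sideways shift of the points. The axis is logarithmic above 10 and linear below. B2m has a median of 2407 in the combination against 837 in isotype control, Usp18 has a median of 0 in every library, and Rhox5 has medians between 531 and 579.

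Promoters of the genes higher in the combination are shown for 5 of those with a match to an ISRE-like motif, since interferon-responsive genes commonly carry one. Of the 12 genes of both lists at least 2-fold higher, 9 had an entry among the RefSeq windows used (GRCm38.p6). Among the 12, Usp18, Ifi44, Irf7, Cxcl9 and Gbp5 reached 50 CPM in the combination but not in isotype control. The 250 bases before the start were searched on both strands for GAAANNGAAA, and 6 of the 9 held a match, as did 3.04% of the 27025 windows. The 9 genes come from lists of interferon-response genes, so a share above that of all windows was built in. Matches were not counted apart in the list genes under 2-fold, so they cannot be tied to a higher level in the combination. The GAS motif TTCNNNGAA, its own reverse complement, was in 1 of the 9, Gbp5, which also held an ISRE-like match and is not printed, and in 7.18% of all windows. A match is a match of letters and not a measured site. Stretches of 60 bases are printed 5′ to 3′ on the strand of the gene, with ISRE-like matches in capitals, including overlapping ones and those on the opposite strand:
B2m, chr2:122147523-122147582, plus strand: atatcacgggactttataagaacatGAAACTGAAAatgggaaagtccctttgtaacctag
Cxcl10, chr5:92349068-92349127, minus strand: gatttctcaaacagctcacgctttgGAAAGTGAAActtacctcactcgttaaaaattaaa
Isg15, chr4:156200850-156200909, minus strand: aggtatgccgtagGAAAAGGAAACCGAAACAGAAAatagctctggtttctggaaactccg
Ifit3, chr19:34583382-34583441, plus strand: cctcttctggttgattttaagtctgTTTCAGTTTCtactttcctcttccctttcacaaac
Gbp3, chr3:142559980-142560039, plus strand: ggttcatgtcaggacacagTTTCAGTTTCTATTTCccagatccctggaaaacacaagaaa

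The stretches for B2m and Cxcl10 hold 1 match each, with that of B2m starting 139 bases and that of Cxcl10 213 bases before the start of transcription. The stretch for Isg15, a ubiquitin-like interferon-stimulated gene, holds 3 overlapping matches, and that for Gbp3, a guanylate-binding GTPase, holds 2. Isg15 stood at 193, 306, 188 and 453 CPM in the collagen-led cells of the 4 libraries, with a ratio of 2.34 (2.14 to 2.57) for combination to isotype control. Gbp3 stood at 117, 125, 83.1 and 250 CPM, with a ratio of 2.14 (1.90 to 2.41). Both were highest in the combination, and both of their ratios exceeded those of the other cells, at 1.58 and 1.39. The ratios of Cxcl10 (4.52 against 2.325) and Ifit3 (2.60 against 0.971) also exceeded those of the other cells. That of B2m did not, at 2.66 against 3.08.

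By the naming rule, which asks the combination to stand at least 2-fold above every other library, 9 genes stood out in collagen-led cells, and the largest ratios were those of Usp18, Cd74, Ifi44 and Ifit3. Cd74, the invariant chain of MHC class II, stood at 33.8, 44.5, 16.4 and 126 CPM, with a ratio of 3.72 (3.02 to 4.63). It is abundant in the other cells, at 10186, 11581, 6019 and 12853 CPM. The macrophage list and Lyz2 were also highest in the collagen-led cells of the combination, as given above, and their part in the Cd74 values was not tested.

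By the naming rule, which asks for 50 CPM in any 1 library, 2 genes stood at least 2-fold below every other library in the combination, Mme at 154, 77.0, 84.8 and 11.2 CPM and Car9, a carbonic anhydrase induced by hypoxia, at 12.02, 68.3, 22.6 and 4.11 CPM. Car9 met the rule through single antibody A and is not among the 5714 genes compared between combination and isotype control. Mme was found in 35 collagen-led cells in all, of which 9, 8, 13 and 5 came from the 4 libraries, and 3 cells held 77.9%, 92.4%, 75.6% and 93.0% of its UMIs there. Car9 was found in 10, 23, 22 and 6 cells. The other 13 genes of the glycolysis and hypoxia list had ratios between 0.399 and 1.02, and of 12 tested genes of the list 1 was higher in the combination, with a median ratio of 0.815. Of the matrix lists, against 50.9% higher among all genes, 1 of 9 collagens was higher, with a median ratio of 0.803. The metalloproteinase list, which also holds inhibitors of these enzymes, had 1 of 6 genes higher, with a median ratio of 0.676. The higher gene was the inhibitor gene Timp1, with a ratio of 1.79, while Mmp2, Mmp9, Mmp11 and Mmp14 were lower. The matricellular and proteoglycan list had 6 of 10 genes higher and a median ratio of 1.32. Lum, Bgn and Thbs1 were at least 2-fold higher, from 16.9, 25.3 and 21.8 CPM in isotype control. In this comparison they met the 50 CPM minimum through the combination alone, so the count and median cannot give the list a direction. The list summed to 3848, 4280, 3804 and 3822 CPM in the 4 libraries. Lum was highest in single antibody B, at 126.7 CPM. Mmp2 stood at 544, 380, 455 and 306 CPM, and Col6a1 had a ratio of 0.634 (0.617 to 0.652). Single antibodies A and B also had median ratios to isotype control under 1 on the collagen and metalloproteinase lists. They were 0.895 and 0.927 on the collagen list and 0.683 and 0.879 on the metalloproteinase list.

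The cell cycle list leaned upwards in the combination, with 17 of 18 genes higher, none 2-fold, and a median ratio of 1.20, where 50.9% of all genes were higher. Single antibody B had 18 of 18 higher with a median ratio of 1.23 (52.0% of all genes), and single antibody A 9 of 18 with 1.00 (51.2% of all genes). These comparisons share the isotype control library. Chemokine genes were among the variable ones: Ccl2, which recruits monocytes, stood at 424, 898, 557 and 751 CPM and Ccl5 at 190, 371, 233 and 399 CPM, lowest in isotype control for both.

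Transcripts of FcγRII, of the CTLA-4 ligands and of PD-L1 were scarcer in these cells than in the other cells. Fcgr2b, which encodes the mouse FcγRII, stood at 13.3, 4.49, 3.46 and 16.1 CPM in collagen-led cells and at 1005 to 1107 CPM in the other cells, or at 0.313% to 1.60% of their level. In keratin-led cells it was found in 2 of 29 cells. The CTLA-4 ligands Cd80 and Cd86 stood at 1.01 CPM each in collagen-led cells and at 0 in keratin-led cells. Cd274, encoding PD-L1, stood at 15.3, 29.3, 12.6 and 49.1 CPM in collagen-led cells, with a ratio of 3.22 (2.35 to 4.49), against 132, 201, 104 and 460 CPM in the other cells. It was thus highest in the combination in both, at between 10.7% and 14.6% of the level of the other cells. In collagen-led cells Cd274 stayed under the 50 CPM minimum in every library and was not among the tested genes. No antibody against PD-1 or PD-L1 was given to these groups.

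Among the 15 keratin-led cells of isotype control and the 5 of the combination, ratios scattered widely, with 525 of 5710 genes at least 2-fold higher (9.19%) and 635 at least 2-fold lower (11.1%) in the combination. The balance turned with the processing, to 811 higher and 465 lower without the deepest cell of each library and to 902 and 635 at a minimum of 20 CPM. By the rule, 10 genes stood above and 140 below. A ratio to the single cell of single antibody B, with 9807 UMIs, was taken to at least 3 UMIs on its smaller side, so that a gene could stand below on 1 UMI in that cell but needed a high level in the combination to stand above. The genes named are Il33, Mt2, Mfsd2a and Dmbt1 above and Lcn2, Plet1, Crybg1, Apoe and Aldoc below. The alarmin gene Il33 stood at 66.3, 37.4, 0 and 1786 CPM, with 77.3% in 1 of the 5 cells, and Dmbt1, encoding a secreted mucosal glycoprotein, at 2753, 0, 714 and 12985 CPM, in 2 of the 5 cells. Lcn2 stood at 1053, 182, 102 and 0 CPM, and none of the 5 cells of the combination was of the Lcn2 and Wfdc18 kind that gave 4 of 15 in isotype control. Plet1 was found in 14 of the 15 isotype control cells, Crybg1 in 13 and Aldoc in 12.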

How the data were processed

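Live CD45+ cells of pooled tumors were fixed, hybridized with Chromium Flex probes and sequenced, and the deposited values are whole-number UMI counts of 19059 genes per cell, which the authors obtained with Cell Ranger (7.0.0 in the processing notes, 7.2.0 in the file headers) on mm10, without normalization. The 4 libraries held 129151823 to 196362818 UMIs. Filters left out 96 cells. Counts were summed per class and library and scaled per 1000000 UMIs, and the smaller side of a ratio was set to at least 3 UMIs. Genes under 50 CPM in both sums compared, or in the higher class of any library, were left out. Between libraries a gene could therefore be tested through its higher sum alone. Intervals were exact (Clopper-Pearson, Poisson or conditional binomial, 95%) and cover counting error only. No test across samples was possible.

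The members and the 19 marker and 22 pathway lists (384 genes, 381 in the table, without Ccnb1, Mx1 and Eno1) were chosen with earlier results of these data known. Named genes are the genes of the selection, up to 4 highest genes of a list and markers at 0, the 10 highest of each class comparison by the smallest ratio over libraries (at least 4-fold), and 5 genes each way for combination against isotype control, with 50 CPM in any library, at least 2-fold from every other library, detected in at least 20% of cells of the library where high. Genes named for an uneven spread over cells, Rhox5, and the genes that divide the keratin-led cells were chosen after their values were seen, as were single members of lists outside that rule. Doublets were not removed, and an alternative leaves out the 5% of cells with the highest Scrublet score per library. Some genes that met the rule are not reported here. The fold rule was tested on simulated data, of which no result is given here. Python 3.11.15, numpy 2.4.6, scipy 1.17.1, pandas 2.3.3, scanpy 1.11.5 and matplotlib 3.10.9 were used, with coordinates from GENCODE M21 (GRCm38).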

Additional observations from a re-analysis of the deposited data

Results flagged for a closer look

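Cells with at least 50 keratin or collagen UMIs that were left out by an immune limit were flagged because they hold a strong signal outside the cells described. There were 6 in isotype control, 14 in single antibody A, 13 in single antibody B and 13 in the combination, 46 in all, of which 5 held more keratin than collagen UMIs. Their median depth was 95396 UMIs and their median share of immune marker UMIs 0.606%. Of the 41 with at least 50 collagen UMIs, 37 had at least 10 Rhox5 UMIs, as had 90.3% of the collagen-led cells.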

How the results depend on the processing

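No paired analysis was possible because each group is 1 library. Of 104 recomputed shares, 99 stayed within the interval of the value given, and the order of the libraries changed only with 0 Ptprc UMIs, where the combination fell below isotype control for all members and for collagen-led cells. With that limit, members made up 1.17% of single antibody B and 0.474% of the combination, and collagen-led cells 1.15% and 0.408%. Thinning every cell to 4280 UMIs gave 0.833% collagen-led cells in single antibody A.

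Of 58 recomputed counts of genes, 47 stayed within 1.5 times. Genes 2-fold higher in the combination in collagen-led cells came to 73 with means over cells, 63 at 20 CPM and 261 without a minimum CPM, and genes 2-fold lower to 70 and 329 at those minimums. In keratin-led cells 902 were higher and 635 lower at 20 CPM, 811 and 465 without the deepest cells, and 646 and 566 with median-of-ratios size factors. Between the classes, 190 genes were higher in keratin-led cells without a minimum CPM, and 29 were higher in collagen-led cells with median-of-ratios size factors and 326 without single antibody B. Without the 5 cells highest on the type I interferon list, 1 of its 4 tested genes was 2-fold higher. Leaving out single antibody B and all settings for the interferon lists were added after seeing the data. Leaving out the deepest cells could not be computed between the classes, since single antibody B has 1 keratin-led cell. The 29 keratin-led cells, with 1 in single antibody B, limit what their values can show, and the cause of these shifts was not tested.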
